A study of Mus musculus with 9 samples.

Results

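The 2 groups of arrays compared here came from neurospheres, free-floating colonies, that were grown from dorsal root ganglia (DRG) and differed by 1 labelled factor, the addition of bone morphogenetic protein 4 (BMP4). They were 6 of the 9 arrays of the series and were found by title. 3 arrays were titled rNCSC, from spheres grown without BMP4, and 3 were titled BMP NCSC, from spheres grown with it at 10 ng/ml. Both groups came from C57BL/6J mouse embryos at embryonic day 12.5 and were taken at passage 3. Both grew in the same serum-free medium with 20 ng/ml of basic fibroblast growth factor (bFGF), 20 ng/ml of epidermal growth factor (EGF), heparin and the N2 and B27 supplements. The labels describe the first group as cells of neural crest origin that turned towards central nervous system (CNS) fates in culture, and the second as cells that did not. The comparison asks what BMP4 changed in such cultures. The other 3 arrays, titled SCSC, came from spinal cord spheres in the medium without BMP4 and enter here through the estimate of spread, the filter on low values and the choice of probe set, with no comparison made of them. How many embryos stand behind an array is not stated, nor whether replicates were grown from separate cultures, so that every p-value here reflects just the scatter of these arrays, which may be technical.

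BMPs are secreted ligands that bind pairs of serine and threonine kinase receptors, which phosphorylate Smad proteins. The Smads then enter the nucleus and raise, among others, the Id genes and several inhibitors of the pathway itself. The sensory neurons and glia of the DRG descend from the neural crest, a migratory population that gives rise to peripheral neurons and glia and, in the head, to cartilage and connective tissue. BMP signals are known both for pushing crest cells towards autonomic neurons and for starting cartilage formation.

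Values are log2 expression per probe set, so that 1 unit is a 2-fold difference, and unexpressed genes sit at about 2 to 4. Differences are BMP NCSC minus rNCSC throughout, so a positive value means higher with BMP4. Of 18194 genes on the arrays, 10319 reached a value of 5 on at least 3 arrays and were tested with limma. A gene was called when its Benjamini-Hochberg adjusted p was below 0.05 and its difference at least 1. Array medians lay between 3.99 and 4.03. All probe sets of a gene were also averaged, in place of taking the highest. This moved 43 of the 172 called genes named here and tested both ways by over 1.5 times. The paragraphs below give such values for some of these genes only. With 3 arrays a group, precision is limited by their small number.

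Replicate 3 of rNCSC stood apart from the other 2. Its correlation with them over the genes tested was 0.976 and 0.968, while these 2 correlated at 0.986 with each other and the BMP NCSC arrays at 0.980 to 0.992 among themselves. In this replicate 60 genes lay at least 2 above both others, and in 48 of these the BMP NCSC mean was above them too. Another 32 lay at least 2 below both others, and in 21 of these the BMP NCSC mean was also below. Above both others lay 4 genes in replicate 1 (2 with BMP NCSC also above) and 26 in replicate 2 (13). Below lay 11 (7) and 5 (2). The filter favoured shared rises, since a gene low on all other arrays without BMP4 could pass only through BMP NCSC arrays. No such share was counted over all genes. Sex-linked genes also differed between the rNCSC arrays. Xist, the RNA that silences an X chromosome in female cells, was at 2.67, 12.19 and 2.37 on replicates 1, 2 and 3 of rNCSC and at 11.68, 11.67 and 10.67 in BMP NCSC. Kdm5d, a Y-linked gene, was at 8.77, 2.03 and 8.73 in rNCSC and at 6.09, 5.82 and 7.86 in BMP NCSC. Every BMP NCSC array thus held both transcripts, whereas each rNCSC array held 1 of them. Eif2s3y, also Y-linked, was at 1.82, 2.01 and 10.60 in rNCSC and at 8.87, 8.40 and 9.97 in BMP NCSC. The part of these differences in the results was not tested. Signs of RNA quality moved with the groups to a small extent. The 3' probe set of actin exceeded the 5' one by 0.84 to 0.86 in rNCSC and by 1.03 to 1.14 in BMP NCSC, and their part in the results was not tested.

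The label of a DRG culture was set against its defining markers. Isl1 and Pou4f1, transcription factors of sensory neurons, were under 4 on all 6 arrays, and of the 3 sensory neuron markers tested 2 were lower in BMP NCSC and none higher. The summed linear level of the 8 such markers on the array was 974 to 1880 in rNCSC and 234 to 618 in BMP NCSC. Of 7 neural crest markers tested, 6 were higher in BMP NCSC and none lower. Sox10, the crest and glial factor, was at 4.24, 3.95 and 4.24 in rNCSC and at 11.66, 11.72 and 11.31 in BMP NCSC. Erbb3, the neuregulin receptor of crest and Schwann cells, was at 2.94, 3.34 and 2.97 against 11.67, 12.02 and 11.74. Averaged over probe sets, their differences were 4.04 and 4.47 in place of 7.42 and 8.73. Of 5 Schwann cell and satellite glia markers tested, 4 were higher and 1 lower, the last also a listed CNS progenitor marker. The summed linear level of the 6 on the array went the other way. It was 21941 to 22888 in rNCSC and 14874 to 16428 in BMP NCSC. Of the 8 crest markers, 1 reached 5 on every rNCSC array, Ets1, at 10.14, 10.27 and 10.78. Replicate 2 held Tfap2b at 6.14 and replicate 3 held Twist1 at 5.48. Ets1 was not called, but was higher in BMP NCSC by 1.05 without replicate 3 of rNCSC. The 8 CNS progenitor markers all reached 5 on every rNCSC array, and 7 of them were lower in BMP NCSC. Markers of endothelium (6 on the array), macrophages (6), red cells (2) and skeletal muscle (5) were under 4 on all 6 arrays. In bulk samples, fewer cells of a type and less RNA per cell cannot be told apart, and this holds for every difference below.

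Over all genes, 2335 of 10319 were higher in BMP NCSC (22.6%) and 2197 were lower (21.3%). For 8212 genes (79.6%) every array of 1 group lay above every array of the other. The median difference was -0.07 and the median of its size 0.86. Large differences were common, since 1322 genes were higher and 990 lower by at least 2, and 63 were higher and 16 lower by at least 8. A set of 226 genes was under 4 on every rNCSC array and at 7 or above on every BMP NCSC array, and 153 genes showed the opposite. Of the called genes, 967 had a mean under 4 in the lower group, and for these the size of the difference is uncertain. A gene at the floor in 1 group could be tested only through the other, so its direction was fixed. Among the 8301 genes that reached 5 on at least 2 arrays of both groups, 1394 were higher (16.8%) and 1449 lower (17.5%). These shares are the background for the gene families below, which carry no test of their own.

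**Figure D1:**
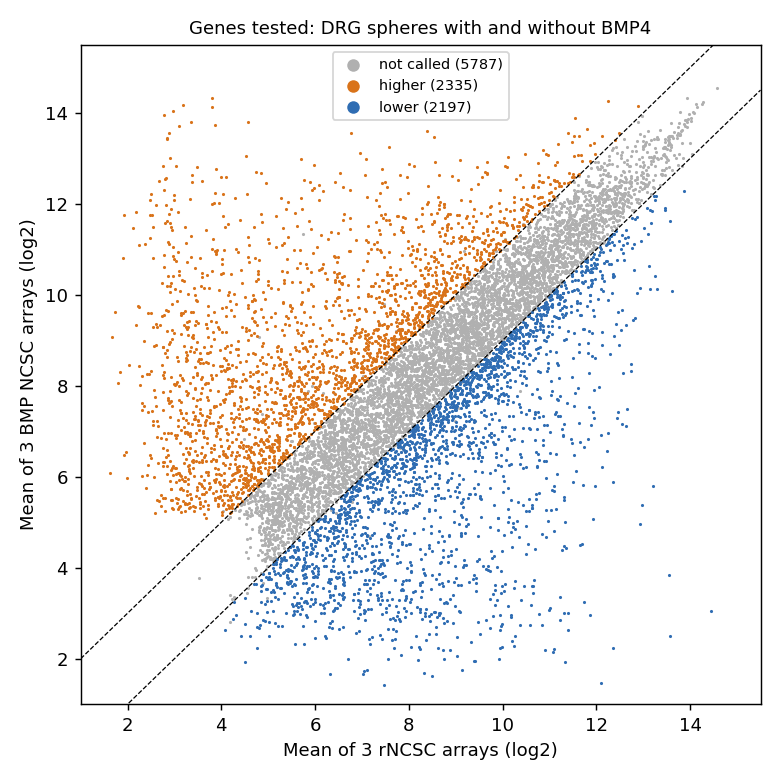
Mean log2 expression of each of the 10319 genes tested in rNCSC (x axis) and BMP NCSC (y axis), with 3 arrays in each group. Genes called higher are orange, genes called lower blue and other genes grey, and dashed lines mark a difference of 1. The genes fill a broad cloud on both sides of the diagonal, while genes near 14 on both axes, among them ribosomal protein genes, lie on it.

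Some genes at the high end in both groups held their level. They were picked among genes that differed by less than 0.5, so their steadiness was fixed by that choice. Rps29, which encodes a protein of the small ribosomal subunit, had a mean of 14.58 ± 0.015 without and 14.54 ± 0.017 with BMP4 (SD, n = 3 each). Tpt1, a calcium-binding growth protein, was at 14.28 ± 0.075 and 14.24 ± 0.049 (n = 3 each). Vim, the intermediate filament vimentin, was at 13.94 ± 0.095 and 14.33 ± 0.058 (n = 3 each), which differed beyond the spread but by less than the size limit (0.39, limma adjusted p = 0.00404). Of all genes tested, 3300 (32.0%) differed by less than 0.5.

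Among the genes with the greatest rises, Cytl1, a secreted protein of cartilage, was at 2.95, 2.76 and 2.93 in rNCSC and at 13.55, 13.69 and 13.46 in BMP NCSC. The opioid precursor Penk was at 3.06, 2.72 and 3.15 against 14.07, 14.16 and 13.88. Serpina3n, a secreted protease inhibitor, was at 3.17, 3.14 and 2.98 against 13.72, 13.53 and 13.92. For all 3 genes the rNCSC arrays were at the floor and the BMP NCSC arrays near the top of the scale. The matrix mineralisation inhibitor Mgp rose by 10.44 (SE 0.13, adjusted p = 1.29e-10) and the matricellular protein gene Ccn2 by 10.54 (SE 0.25, adjusted p = 3.46e-09). Ahr, the aryl hydrocarbon receptor, a ligand-activated transcription factor, was at 2.65, 3.11 and 2.79 against 13.52, 13.44 and 13.32. Cyp1a1, a P450 enzyme that the same receptor is known to induce, was at 2.97, 3.06 and 3.01 against 11.00, 10.86 and 8.53, and Nqo1, a quinone reductase, at 7.15, 6.50 and 7.70 against 11.84, 12.20 and 12.44. The receptor and both enzymes were higher on every BMP NCSC array than on any rNCSC array. The difference of Ahr was 10.57, or 5.81 averaged over probe sets. Ptgs2, the inducible cyclooxygenase of prostaglandin synthesis, rose from 2.11 ± 0.19 to 11.47 ± 0.57 (n = 3 each).

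Among the genes with the greatest falls, Gpm6a, a membrane glycoprotein of neurons and their precursors, was at 13.48, 13.42 and 13.72 in rNCSC and at 4.19, 3.49 and 3.86 in BMP NCSC. Grm5, a metabotropic glutamate receptor, was at 11.26, 11.30 and 11.45 against 1.93, 1.88 and 1.94. Prkcb, a protein kinase C isoform, was at 11.89, 11.81 and 11.91 against 3.08, 2.89 and 2.88. Each of these genes was abundant on all rNCSC arrays and near or at the floor on all BMP NCSC arrays. Prkcb differed by -8.92, or by -5.44 averaged over probe sets. Gatm, the first enzyme of creatine synthesis, fell by 8.38 (SE 0.27, adjusted p = 1.96e-08), and Acsbg1, an acyl-CoA synthetase of the nervous system, by 7.93 (SE 0.08, adjusted p = 6.84e-11). Fut9, the fucosyltransferase that makes the Lewis X sugar of neural stem cells, fell from 11.08 ± 0.12 to 2.15 ± 0.045, and Rfx4, a transcription factor of the neural tube, from 11.09 ± 0.1 to 2.21 ± 0.14 (n = 3 each). Nnat, an imprinted gene of the developing brain, fell by 8.76 and Bex1, a small neural adaptor, by 8.49.

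Collagen genes of the extracellular matrix were higher with 1 exception. Of 26 collagen chain genes tested, 25 were higher in BMP NCSC and none lower, with a median difference of 5.88 against -0.07 over all genes. 17 of the 26 reached 5 only in BMP NCSC, and of the 8 that reached it in both groups all 8 were higher. Col3a1, of the fibrils of soft connective tissue, was at 2.78, 2.59 and 2.96 in rNCSC and at 12.58, 12.06 and 12.28 in BMP NCSC. Col14a1, which coats such fibrils, rose by 9.76, and Col8a1, a short-chain collagen of vessel walls and cornea, at 2.64, 2.48 and 2.68 against 11.44, 11.49 and 12.98. For each of these genes the rNCSC means were at the floor. Col1a1 and Col1a2, which form the main collagen of bone and skin, did not pass the filter. Their means were 4.12 ± 0.58 and 3.50 ± 0.13 in BMP NCSC (n = 3 each), and those of rNCSC 2.79 ± 0.16 and 3.30 ± 0.082. Col1a1 reached 4.78 on replicate 3 of BMP NCSC, without overlap between the groups. Col10a1, of hypertrophic cartilage, did not pass either, with 4.64 ± 0.23 (n = 3) in BMP NCSC. The 1 tested chain that was not called was Col19a1, with means of 4.98 and 3.34, named here after its values were seen. It reached 5 only on replicate 2 of rNCSC (6.73) and on replicates 1 and 2 of SCSC (6.17 and 5.40). Without replicate 3 of rNCSC it was lower (-2.50).

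Enzymes that modify and assemble collagen followed the chains. Of 24 tested, 19 were higher and 2 lower (median 3.09), and of the 17 that reached 5 in both groups 13 were higher and 1 lower. Loxl1, a crosslinking lysyl oxidase, was at 2.52, 2.85 and 3.10 against 9.46, 9.15 and 10.37. Pcolce, an enhancer of procollagen cleavage, was at 5.32, 4.07 and 7.88 in rNCSC and at 12.51, 11.97 and 13.06 in BMP NCSC. Replicate 3 of rNCSC was nearest to BMP NCSC for Pcolce, whose difference was 6.76 with it and 7.82 without it. The 2 falls were Adamts3, a procollagen protease (-2.92, SE 0.68, adjusted p = 0.00376), and Colgalt2, a collagen galactosyltransferase (-1.47), which was not called without replicate 3 of rNCSC (-0.94). Ppib, a prolyl isomerase and chaperone of collagen folding, was abundant in both groups and differed by less than 0.5.

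Proteoglycans split by type. All 8 small leucine-rich proteoglycans tested were higher (median 8.76), and each reached 5 only in BMP NCSC, which fixed their direction. Bgn (biglycan) was at 3.96, 3.56 and 3.87 in rNCSC and at 14.20, 14.08 and 14.09 in BMP NCSC, and Fmod (fibromodulin) at 3.30, 3.47 and 3.25 against 11.83, 11.48 and 13.03. Among 7 genes of the aggrecan family, link proteins and other matrix proteoglycans (Hspg2 and Prg4), 4 were higher and 3 lower. All 4 rises reached 5 only in BMP NCSC and 1 fall, Ncan, only in rNCSC, which fixed their direction. The 2 that reached 5 in both groups were both lower. Acan, the aggrecan of cartilage, rose by 9.21 (SE 0.20, adjusted p = 2.39e-09), and the link protein gene Hapln1 by 8.85 (SE 0.49). In the other direction, Ncan (neurocan), a proteoglycan of brain matrix, was at 11.73, 12.05 and 11.99 against 4.50, 6.11 and 4.63. Bcan (brevican), of the same family, fell by 1.16 (SE 0.14) but remained at 11.66 ± 0.27 (n = 3) in BMP NCSC. Vcan (versican) fell by 2.08 (SE 0.70, adjusted p = 0.0228), with values of 9.62, 10.35 and 11.70 in rNCSC that overlapped those of 7.55, 7.86 and 10.04 in BMP NCSC. It was not called without replicate 3 of rNCSC (-1.51) or without replicate 1 (-1.61) or 2 (-1.77) of BMP NCSC. So members of this list were called both ways, though the filter fixed the direction of every rise.

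Of 39 genes that build and sulphate glycosaminoglycans, the sugar chains of proteoglycans, 24 were higher and 2 lower (median 1.79). Papss2, which makes the sulphate donor, was at 2.99, 2.61 and 3.30 against 11.07, 10.01 and 10.15, whereas its relative Papss1 was at 11.46, 11.61 and 11.46 against 11.40, 11.50 and 11.11 and overlapped between the groups. Papss2 differed by 7.44, or by 3.02 averaged over probe sets. Has2, a hyaluronan synthase, rose by 7.09 (SE 0.29, adjusted p = 9e-08) and the sulphate transporter gene Slc26a2 by 6.16 (SE 0.32, adjusted p = 3.7e-07). The sulphotransferase genes Hs3st2 and Chst7 fell by 3.45 and 3.11. Of 30 other matrix glycoproteins, 23 were higher and 3 lower. Among them Tnc (tenascin-C), known from the neural stem cell niche, fell most, at 13.33, 13.37 and 12.90 against 5.92, 5.63 and 5.83, and Postn (periostin), of bone surface and tendon, rose by 8.94 (SE 0.38). Of 9 laminins, nidogens and agrin, 7 were higher and 1 lower. Lama4, a laminin chain of vessel basement membranes, was at 3.24, 5.53 and 2.87 against 10.94, 11.03 and 10.84, while Lama5 fell by 1.01 (SE 0.14, adjusted p = 0.000162). Without replicate 1 (-0.99) or 3 (-0.93) of rNCSC, or replicate 3 of BMP NCSC (-0.90), Lama5 missed the size limit.

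Of 6 matrix metalloproteinases 5 were higher and 1 lower, but 4 of the 6 reached 5 only in BMP NCSC. Of 12 ADAMTS proteases 6 were higher and 3 lower (median 0.62), and of the 6 that reached 5 in both groups 2 were higher and 1 lower. Mmp2, a gelatinase, was at 2.77, 3.53 and 5.65 in rNCSC and at 12.63, 12.55 and 12.60 in BMP NCSC. Mmp14, a membrane protease that activates it, rose by 6.52 (SE 0.19, adjusted p = 1.22e-08). Of 12 TIMPs and serpins, 10 were higher and none lower. Timp1 rose by 5.68 (SE 0.29), while Timp4 was at 11.84, 11.24 and 12.03 against 11.14, 11.72 and 10.88, with groups that overlapped (limma adjusted p = 0.14). Mmp3 varied within BMP NCSC, at 9.49, 8.41 and 12.33.

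**Figure D2:**
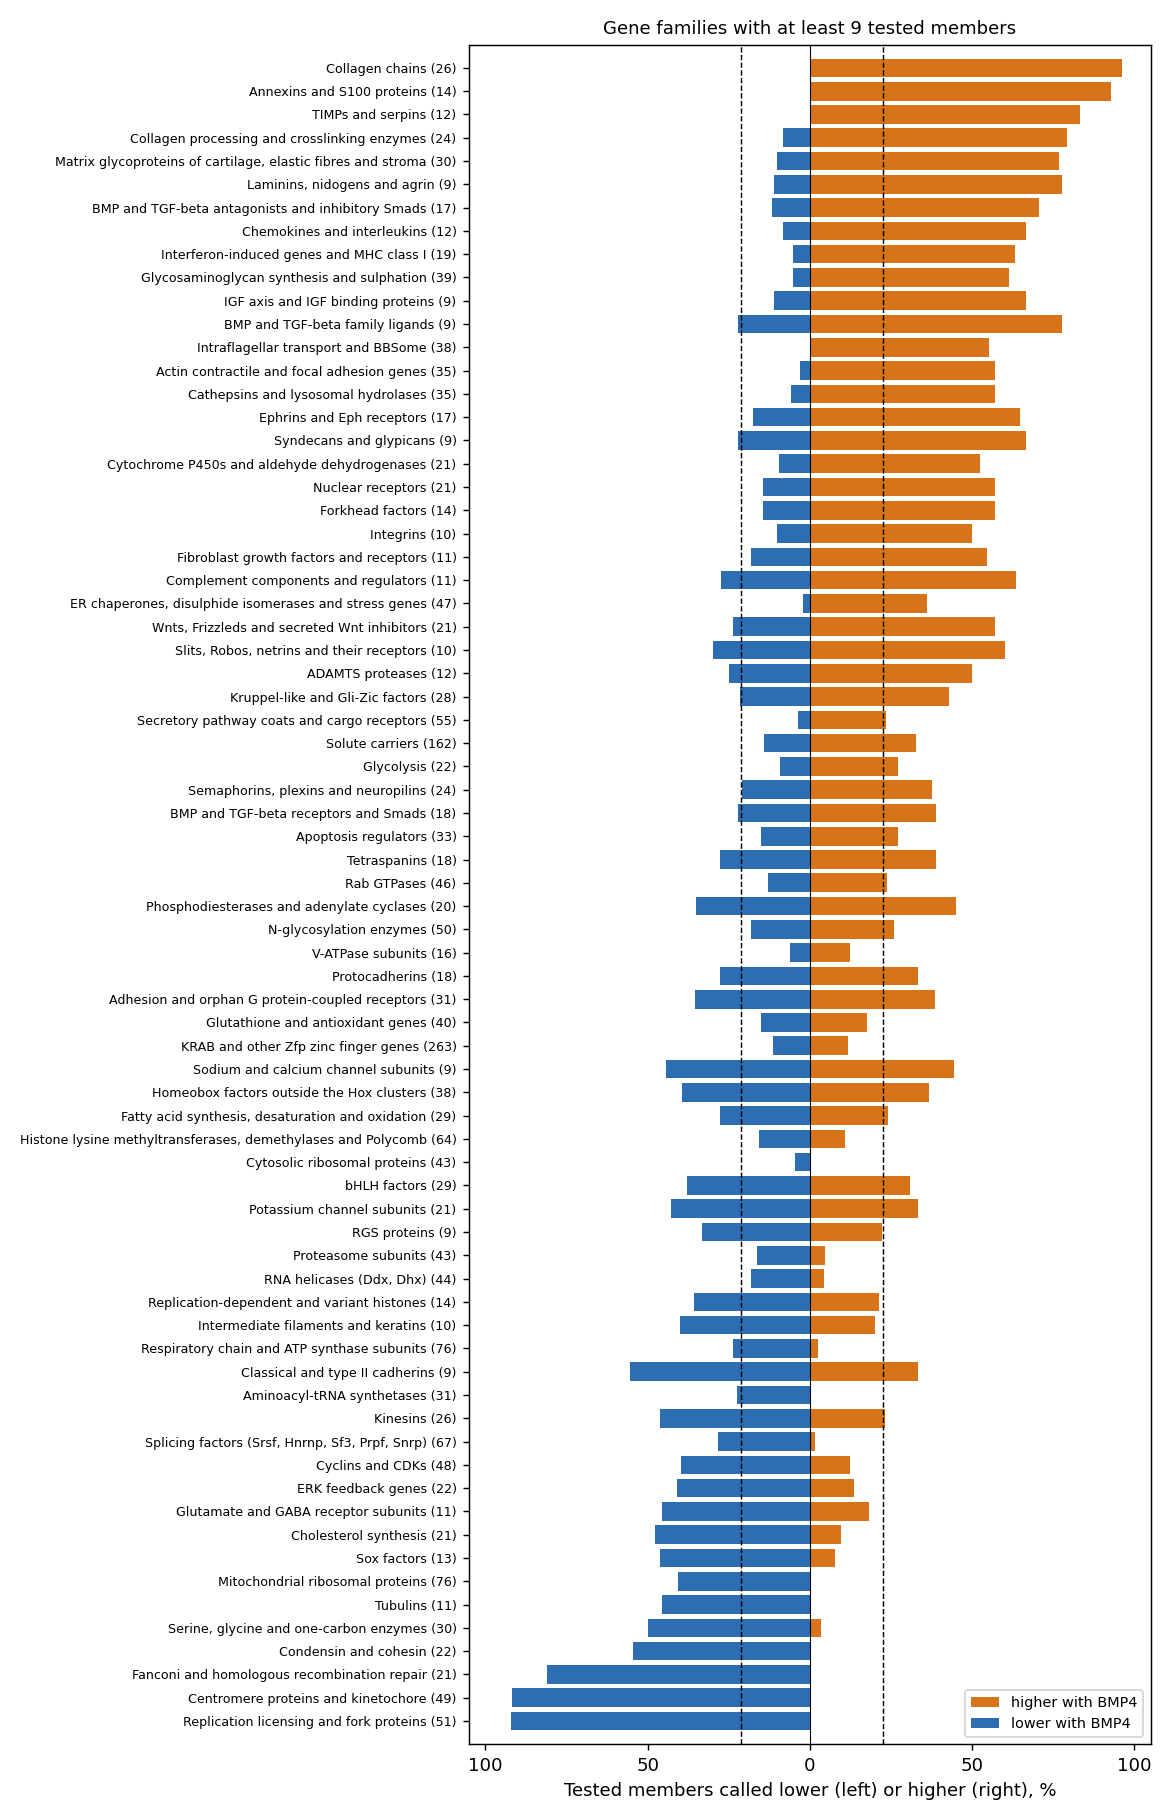
Percentage of the tested members of 72 of the gene families with at least 9 tested that were called higher (orange, to the right) or lower (blue, to the left) in BMP NCSC than in rNCSC, with the number tested after each name. Dashed lines mark the shares over all genes, 22.6% higher and 21.3% lower. Collagens and annexins lie farthest to the right, replication and kinetochore genes farthest to the left, and cytosolic ribosomal proteins show hardly any bar.

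Of 47 chaperones and stress genes of the endoplasmic reticulum (ER), 17 were higher and 1 lower (median 0.67), and of 55 genes of secretory coats and cargo receptors 13 were higher and 2 lower (median 0.45). The share of higher genes was 36.2% and 23.6%, so the second was near the 22.6% of all genes, while 2.1% and 3.6% were lower against 21.3%. Hspa5, the main ER chaperone BiP, was at 13.03, 13.02 and 12.99 against 13.53, 13.45 and 13.51, without overlap but by less than the size limit (0.49). Larger differences were in single components. Copz2, a coat subunit, was at 4.08, 3.74 and 4.18 against 10.38, 10.32 and 10.70, and Kdelr3, a receptor that returns proteins to the ER, at 5.24, 4.43 and 4.57 against 10.17, 10.24 and 10.53. Sec24d, a coat subunit needed for procollagen export, rose by 3.54 (SE 0.19) and Creb3l2, a transcription factor of the secretory route in chondrocytes, by 3.26 (SE 0.28). Trib3 and Chac1, targets of the stress factor ATF4, rose by 6.42 (SE 0.25) and 4.13 (SE 0.25). Of 35 cathepsins and lysosomal hydrolases, 20 were higher and 2 lower (median 1.43), and 19 of the 31 that reached 5 in both groups were higher. Arsa, a lysosomal sulphatase, was at 5.85, 5.98 and 5.72 against 9.99, 10.13 and 10.26. Ctsz, a cathepsin, was at 6.19, 8.62 and 2.99 in rNCSC, a spread far wider than that of 12.30, 12.29 and 12.32 in BMP NCSC.

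Of 9 ligands of the BMP and TGF-beta family tested, 7 were higher and 2 lower, but 6 reached 5 only in BMP NCSC and 2 only in rNCSC. Bmp2 was at 3.03, 3.15 and 3.61 against 10.45, 10.55 and 11.14, and Gdf10 at 3.02, 2.90 and 2.81 against 10.86, 11.98 and 11.88. Bmp7 was at 6.63, 7.72 and 7.29 against 4.61, 4.48 and 4.35. Bmp2 and Gdf10 were thus at the floor without added BMP4, while Bmp7 was higher there. Inhbb, a subunit of activin B, fell by 5.04 (SE 0.43) and Inhba, of activin A, rose by 3.32 (SE 0.50). Bmp5 was at 2.69, 3.00 and 6.33 in rNCSC and rose by 6.78, or by 7.94 without replicate 3. Of 17 antagonists and inhibitory Smads, 12 were higher and 2 lower (median 2.15). Smad6, an inhibitory Smad, was at 2.87, 2.71 and 2.98 against 10.33, 10.37 and 10.58. Grem1, a secreted BMP antagonist, rose by 7.15 (SE 0.26), Bmper by 6.10 (SE 0.54) and the pseudoreceptor gene Bambi by 6.06 (SE 0.21). The 2 that fell were Chrdl1, a chordin relative, by 5.47 (SE 0.29) and Sostdc1, another secreted antagonist. Of the antagonists, Nog, the classical BMP antagonist noggin, was under 4 on all 6 arrays; it was singled out after its values were seen.

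Receptors and signal-carrying Smads were mixed, with 7 higher and 4 lower of 18 and a median of 0.18. Bmpr1a, a type I receptor, was at 11.07, 11.16 and 11.02 against 11.42, 11.51 and 11.39, and Bmpr2, the type II receptor, at 12.06, 12.15 and 12.13 against 12.56, 12.63 and 12.45. Both were abundant in both groups and lay below the size limit, at 0.36 and 0.43. Smad4, the shared partner Smad, had means of 11.90 and 11.72, with groups that did not overlap but were not called (limma adjusted p = 0.0843). The type I receptor gene Bmpr1b went the other way, at 8.97, 8.46 and 7.32 against 2.16, 2.26 and 2.21. Its difference was -6.04, or -2.34 averaged over probe sets. Smad5 fell by 1.56 (SE 0.11), and the TGF-beta receptor gene Tgfbr2 rose by 6.51 (SE 0.46, adjusted p = 2.38e-06), or by 2.40 with probe sets averaged. Of the 4 Id genes 3 were higher, Id1 by 3.20 and Id3 by 1.48, both named after their values were seen, and Id4. Id4 was at 4.50, 4.27 and 5.31 against 11.44, 11.99 and 11.03, whereas Id2 was at 12.14, 12.10 and 12.14 against 12.25, 12.38 and 12.23 and was not called (0.16, adjusted p = 0.32).

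Other growth factor pathways changed in a similar, divided way. Both groups were given bFGF and EGF, yet Fgfr2 and Fgfr3 rose by 4.27 (SE 0.39) and 3.01 (SE 0.58) and the ligand Fgf7 by 7.92 (SE 0.26). A list of 22 tested genes held feedback genes of the ERK kinase cascade and other Dusp phosphatases, such as Dusp10, Dusp11 and Dusp22. Of the 22, 3 were higher and 9 lower (median -0.78), a count that does not measure ERK feedback alone. Etv4, a transcription factor that FGF signals are known to induce, was at 6.93, 7.34 and 6.76 against 4.73, 5.14 and 4.39, while its relative Etv5 was at 11.87, 11.89 and 12.36 against 11.79, 11.87 and 11.88 with overlap. Dusp1, an early-response phosphatase, was an exception and rose by 2.35 (SE 0.30). Of 21 Wnts, Frizzled receptors and secreted inhibitors, 12 were higher and 5 lower. Dkk3 rose by 6.51 (SE 0.19) and Dkk2 by 5.47 (SE 0.13), both of a family of secreted Wnt inhibitors. Sfrp2, an inhibitor of another type, was at 7.76, 7.45 and 7.76 against 2.87, 2.64 and 3.17, and the ligand Wnt7a fell by 4.33 (SE 0.13). Of 9 genes of the insulin-like growth factor axis 6 were higher and 1, Igfbp2, lower. Igfbp2 was at 12.96, 12.84 and 13.11 against 5.25, 5.32 and 5.54, and Igfbp7 at 4.30, 4.76 and 5.52 against 11.45, 11.45 and 11.92. Igfbp7 differed by 6.75, or by 2.72 averaged over probe sets.

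Axon guidance families also held members called each way. Of 17 ephrins and Eph receptors 11 were higher and 3 lower, of 24 semaphorins, plexins and neuropilins 9 and 5, and of 10 Slits, Robos and netrins with their receptors 6 and 3. Among members that reached 5 in both groups, these counts were 3 and 0 of 6, 3 and 3 of 13, and 3 and 0 of 4. The filter thus fixed the direction of every fall in the first and last of these families. The receptor gene Epha5 was at 10.98, 10.75 and 10.79 against 2.47, 2.82 and 2.96, and Epha3 at 2.64, 3.71 and 4.15 against 10.51, 10.13 and 7.53. Ntn1 (netrin-1) fell by 7.92 (SE 0.17) and its attractive receptor gene Dcc by 7.45 (SE 0.13). The repulsive netrin receptor gene Unc5c was at 3.77, 4.53 and 4.89 against 11.85, 11.75 and 11.31. Ntn4, another netrin, and Unc5b were also higher, by 2.71 and 3.73, as was the Dcc relative Neo1 by 1.45, a gene singled out after seeing its values. Averaged over probe sets, Ntn1 differed by -4.27, Dcc by -4.67 and Neo1 by 0.88, below the size limit. The secreted repellents Sema3d and Slit3 rose by 7.42 (SE 0.56) and 7.17 (SE 0.36), while Plxnc1, a semaphorin receptor, fell by 5.51 (SE 0.21).

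Cadherins were called both ways too, with 3 of 9 classical and type II members higher and 5 lower. Among the 6 that reached 5 in both groups, 3 were higher and 2 lower. Cdh19, of crest and Schwann cell precursors, was at 7.03, 7.60 and 7.74 against 11.62, 11.82 and 11.65. Cdh4, of brain and retina, was at 10.40, 10.52 and 10.86 against 2.77, 2.79 and 2.63. Of 18 protocadherins, 6 were higher and 5 lower. Among the 11 that reached 5 in both groups, 3 were higher and 1 lower. The 4 with the greatest rises were of the beta cluster, led by Pcdhb9 (4.55, SE 0.20), Pcdhb12 and Pcdhb17, whereas the 4 with the greatest falls, such as Pcdh11x (-7.76, SE 0.19) and Pcdh10 (-7.05, SE 0.13), lie outside it. Of 11 genes listed with the glutamate and GABA receptor subunits, 2 were higher, Gria4 and Grina, and 5 lower. Grina does not encode a receptor subunit. All 5 falls reached 5 only in rNCSC, which fixed their direction. Among the 6 that reached it in both groups, 2 were higher and none lower. Gria2 and Gria4 encode subunits of the same AMPA type of receptor. Gria2 was at 9.56, 10.11 and 9.53 against 3.06, 5.01 and 3.72, Gria4 at 8.42, 8.42 and 9.50 against 12.01, 12.09 and 10.99, and Gria3, with a difference of 0.16, was not called. Among 21 genes with potassium channel symbols, 7 were higher and 9 lower, with Kcnmb4os2, an opposite-strand RNA, among the falls. The filter fixed the direction of the 6 that reached 5 only in BMP NCSC and the 9 only in rNCSC. Among the 5 that reached it in both groups, 1 was higher and none lower. Kcnd3 and Kcnd2, of the A-type current, were down by 8.29 (SE 0.22) and 7.10 (SE 0.56). Kcnma1, the large-conductance channel, was up by 6.66 (SE 0.35). With probe sets averaged these values were -3.24, -4.37 and 3.79.

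**Figure D3:**
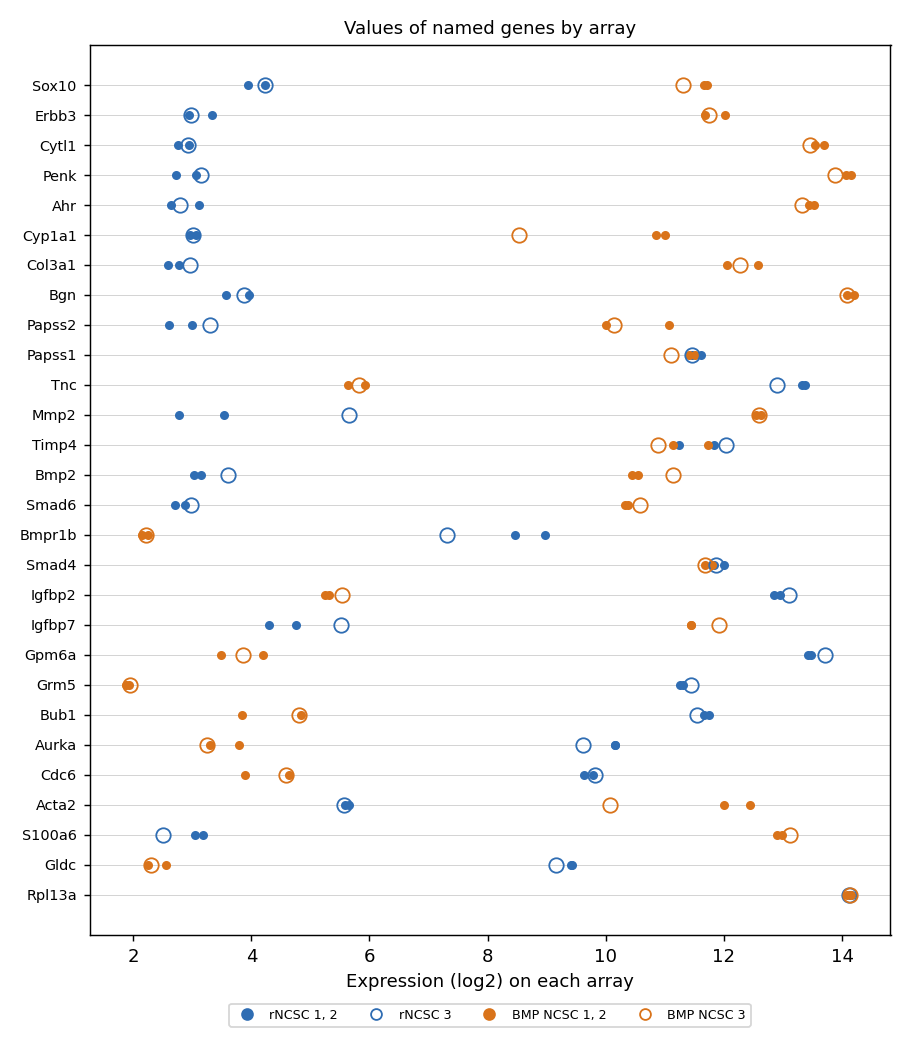
Log2 expression of 28 genes named in the text on each array, with rNCSC arrays in blue and BMP NCSC arrays in orange, 3 of each, and open circles for replicate 3 of each group. Genes are grouped by role from top to bottom. The arrays of both groups are apart for all genes drawn, for Smad4 narrowly, except Papss1, Timp4 and Rpl13a, where the arrays overlap.

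Replication and kinetochore genes were mostly lower. Of 51 replication licensing and fork genes, all of which passed the filter, 47 were lower in BMP NCSC and none higher, with a median of -3.03. Of 49 centromere and kinetochore genes, 45 were lower and none higher, with a median of -4.13. Restricted to genes that reached 5 in both groups, these counts were 36 of 40 and 23 of 25. Bub1, a spindle checkpoint kinase, was at 11.74, 11.67 and 11.55 in rNCSC and at 3.85, 4.84 and 4.80 in BMP NCSC. Aurka, the centrosomal kinase Aurora A, was at 10.16, 10.15 and 9.61 against 3.29, 3.78 and 3.24. Cdc6, which loads the replicative helicase, was at 9.79, 9.63 and 9.82 against 3.89, 4.64 and 4.58. Each of these genes lay near the floor on every BMP NCSC array. Aurka differed by -6.53, or by -3.53 averaged over probe sets. Tk1, a thymidine kinase of S phase, fell by 5.56 (SE 0.16, adjusted p = 1.21e-08), and Uhrf1, which maintains DNA methylation at replication forks, by 5.58 (SE 0.16, adjusted p = 1.1e-08). Of 21 Fanconi and recombination repair genes, 17 were lower and none higher, among them Brca1 (-4.29, SE 0.11, or -1.91 averaged over probe sets). The filter fixed the direction of the 13 that reached 5 only in rNCSC, and of the 8 that reached it in both groups 5 were lower. Of 22 condensin and cohesin genes 12 were lower. The condensin subunit gene Ncapg fell by 6.54 (SE 0.18), whereas the cohesin genes Stag2, Wapl and Nipbl, which also act outside mitosis, differed by 0.17 to 0.40 in size and were not called.

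Cyclins and their kinases and inhibitors were divided, with 6 of 48 higher and 19 lower. Ccna2, the cyclin of S phase and G2, was at 12.10, 12.33 and 11.95 against 5.53, 6.52 and 6.62. Ccnd3, a cyclin of G1, was at 7.99, 8.19 and 7.46 against 11.31, 11.32 and 11.51, while Ccnd2 was abundant in both groups and differed by 0.45. The kinase inhibitor genes Cdkn2b and Cdkn1a rose by 4.61 (SE 0.36) and 2.27 (SE 0.30). Of 26 kinesins, 6 were higher and 12 lower. The mitotic motors Kif2c, Kif4 and Kif11 fell by 6.20, 6.07 and 5.93, whereas Kif5c, a transport motor, rose by 3.54 (SE 0.42) and Kif5b, another one, was not called. Lamins changed places. Lmnb1, lamin B1 of dividing cells, was at 10.91, 11.11 and 10.49 against 4.60, 4.88 and 4.74, and Lmna, lamins A and C of stiff and differentiated tissue, at 4.70, 5.05 and 4.59 against 10.30, 10.48 and 10.27. Ezh2, the Polycomb methyltransferase of dividing cells, fell by 3.71 (SE 0.16) and its relative Ezh1 rose by 4.35 (SE 0.12).

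Short sequences known from genes of cell division were counted in promoters. The letters TTTGAA or TTCGAA, known as the cell cycle homology region (CHR), and CCAAT, the letters bound by NF-Y, were searched on both strands in the 250 bases before and 50 after the start of each gene with 1 listed start (RefSeq, GRCm38.p6). CHR letters were found in 51.3% of 39 kinetochore promoters, 13.3% of the 6676 promoters of genes tested, 17.6% of those called lower and 12.2% of those called higher. They were also in 53.3% of 15 condensin and cohesin promoters and 47.4% of 19 kinesin promoters. Both letter sets stood together in 41.0% of the kinetochore promoters, 26.7% of those of condensin and cohesin, 36.8% of those of kinesins, 5.7% of those tested and 11.8% of 34 replication promoters. Among genes lower by at least 4 the share with both was 23.6% of 229, and among genes higher by at least 4 it was 5.3% of 318. Over all 22862 listed promoters, 19.8% held CHR letters, 38.2% CCAAT and 7.8% both. A match is a description and no sign that a factor binds there. The stretches from 100 bases before to 50 after the start are shown for Bub1, Ttk and Aurka, which are among the genes of this family that fell most and hold both, and for Cenpe, which fell as far (-7.03) without CHR letters, with the matches in capitals and each gene's own strand from 5′ to 3′. They lie at chr2:127831810-127831959 on the minus strand for Bub1, chr9:83834589-83834738 on the plus strand for Ttk, chr2:172370521-172370670 on the minus strand for Aurka and chr3:135212463-135212612 on the plus strand for Cenpe. In Bub1, TTCGAA starts at position 15, counted from 1 at the first transcribed base, and the forward CCAAT at position -42, and in Ttk and Aurka the CHR letters start at positions 8 and 33.
Bub1: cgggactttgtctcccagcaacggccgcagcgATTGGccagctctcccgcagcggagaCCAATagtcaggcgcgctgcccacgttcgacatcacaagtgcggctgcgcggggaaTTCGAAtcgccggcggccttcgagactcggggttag
Ttk: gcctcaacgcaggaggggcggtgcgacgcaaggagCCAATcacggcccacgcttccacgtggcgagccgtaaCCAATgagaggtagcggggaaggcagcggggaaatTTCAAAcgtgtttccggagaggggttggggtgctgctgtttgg
Aurka: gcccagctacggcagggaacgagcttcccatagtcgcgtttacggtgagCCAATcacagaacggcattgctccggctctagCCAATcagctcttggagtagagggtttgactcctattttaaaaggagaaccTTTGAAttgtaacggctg
Cenpe: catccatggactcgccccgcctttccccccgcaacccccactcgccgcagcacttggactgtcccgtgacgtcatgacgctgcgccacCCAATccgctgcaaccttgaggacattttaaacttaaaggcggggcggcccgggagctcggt

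The contractile and adhesion side of the cytoskeleton was higher. Of 35 genes tested, 20 were higher and 1 lower (median 1.31), and of the 29 that reached 5 in both groups 14 were higher and 1 lower. Acta2, smooth muscle actin, was at 5.57 to 5.66 in rNCSC and rose by 5.90, with 10.08 on replicate 3 of BMP NCSC, and Tagln, an actin-binding protein of smooth muscle, at 3.19, 3.37 and 3.27 against 10.26, 10.45 and 7.51. Replicate 3 of BMP NCSC was the lowest of its group for both, and without it the differences were 6.62 and 7.08 in place of 5.90 and 6.13. Averaged over probe sets, Acta2 differed by 2.06. Cnn1, Des and Myh11, markers of mature smooth muscle, were under 4 on all 6 arrays, and the summed linear level of the 6 smooth muscle markers was 106 to 118 in rNCSC and 1519 to 7584 in BMP NCSC. Synpo, an actin-bundling protein, rose by 6.65 (SE 0.41). Csrp2, a LIM protein, was the 1 fall (-3.22, SE 0.20), and Actb and Actg1, the actins of all cells, differed by 0.20 and 0.10 in size and were not called. The letters GGAATG, those of the TEAD sites downstream of YAP, were in 36.0% of 25 promoters of this family, 11.3% of all tested and 14.6% of all listed. The stretch with the match is shown for Acta2, from position -200 to -100, at chr19:34255473-34255573 on the minus strand, with the match in capitals starting at position -146.
Acta2: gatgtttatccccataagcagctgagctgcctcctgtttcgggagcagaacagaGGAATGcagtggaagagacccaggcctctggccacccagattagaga

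Annexins and S100 proteins, both calcium-binding, were higher almost without exception, in 13 of 14 tested (median 6.26) and in 7 of the 8 that reached 5 in both groups. S100a6 was at 3.18, 3.05 and 2.50 against 12.98, 12.89 and 13.12, and Anxa1, an inhibitor of inflammation, at 3.96, 3.70 and 3.93 against 13.76, 13.55 and 13.88. The exception was S100a10, at 12.75, 12.45 and 12.14 against 12.26, 12.15 and 12.19 with overlap. Primary cilium genes were higher in part. Of 38 genes of intraflagellar transport and the BBSome, 21 were higher, none lower and 17 not called (median 1.13), with 16 of 33 among those that reached 5 in both groups. Ift88, a core transport subunit, was at 4.77, 4.73 and 5.11 against 7.15, 6.99 and 7.45, and Tctn2, of the ciliary gate, rose by 2.34 (SE 0.13). Tubulins, of which the cilium's axoneme is built, were not higher in any of 11 cases, and 5 were lower, among them the neural Tubb2b (-3.17, SE 0.27).

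Families of transcription factors were mostly divided by member. Of 38 homeobox genes outside the Hox clusters, 14 were higher and 15 lower. Alx1, of the head mesenchyme, was at 2.49, 2.41 and 2.73 against 11.17, 10.74 and 10.51, and Dlx1, of branchial arches and forebrain, rose by 7.54 (SE 0.20). Of 14 forkhead genes 8 were higher and 2 lower, with Foxf1 up by 6.89 (SE 0.12) and the mitotic Foxm1 down by 3.01 (SE 0.16). Of 13 Sox genes 1, Sox10, was higher and 6 were lower. Sox8 was at 10.81, 10.97 and 11.22 against 3.24, 2.95 and 3.17, the opposite of its close relative Sox10, while Sox4 was above 13 on every array and not called. Of 21 nuclear receptors 12 were higher and 3 lower. Nr4a1, an immediate early receptor, was at 7.14, 7.63 and 5.86 against 11.63, 11.27 and 10.71, and Nr2f1, of the developing nervous system, at 12.05, 11.73 and 12.02 against 6.51, 7.38 and 8.37. Klf4, of epithelia and pluripotent cells, rose by 6.14 (SE 0.19) and Runx1, of blood and cartilage, by 6.64 (SE 0.22). The largest family, 263 Zfp zinc finger genes, held 31 higher and 30 lower, with a median of -0.14. Both shares were below those of all genes, but no test was made of that.

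Among genes of basic cell functions, none of 76 mitochondrial ribosomal proteins was higher and 31 were lower (median -0.84), and of 67 splicing factors 1 was higher and 19 lower (median -0.66). All 76 and all 67 reached 5 in both groups, so the filter did not set these directions. Mrpl28 was at 9.78, 9.89 and 9.58 against 7.43, 7.44 and 7.24. Of 76 respiratory chain subunits, 18 were lower and 2 higher (median -0.65), a share of 23.7% lower that was near the 21.3% of all genes, with Ndufs4, of complex I, at 11.03, 11.02 and 11.14 against 9.19, 9.12 and 9.12. Of 43 cytosolic ribosomal proteins 2 were lower (Rpl14 and Rps25) and none higher (median -0.12). Of 30 enzymes of serine, glycine and one-carbon metabolism 15 were lower and 1 higher. Gldc, of the glycine cleavage system, was at 9.42, 9.41 and 9.16 against 2.25, 2.56 and 2.29, and Mthfd2, the mitochondrial folate enzyme, went the other way (1.46, SE 0.17). Of 21 cholesterol synthesis genes 10 were lower and 2 higher (median -0.96), with Dhcr7, the last reductase of the path, at 9.45, 9.81 and 8.94 against 6.82, 6.95 and 6.81. Of 22 glycolysis genes 6 were higher and 2 lower, of 29 genes of fatty acid synthesis and oxidation 7 and 8, and of 40 glutathione and antioxidant genes 7 and 6. Scaling each array to its ribosomal protein genes moved every difference up by 0.17, which turned the medians of the cytosolic ribosomal proteins and of the Zfp genes to 0.04 and 0.03. The median of the glutathione and antioxidant genes turned from -0.03 to 0.14. The other medians given in this paragraph kept their sign.

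**Figure D4:**
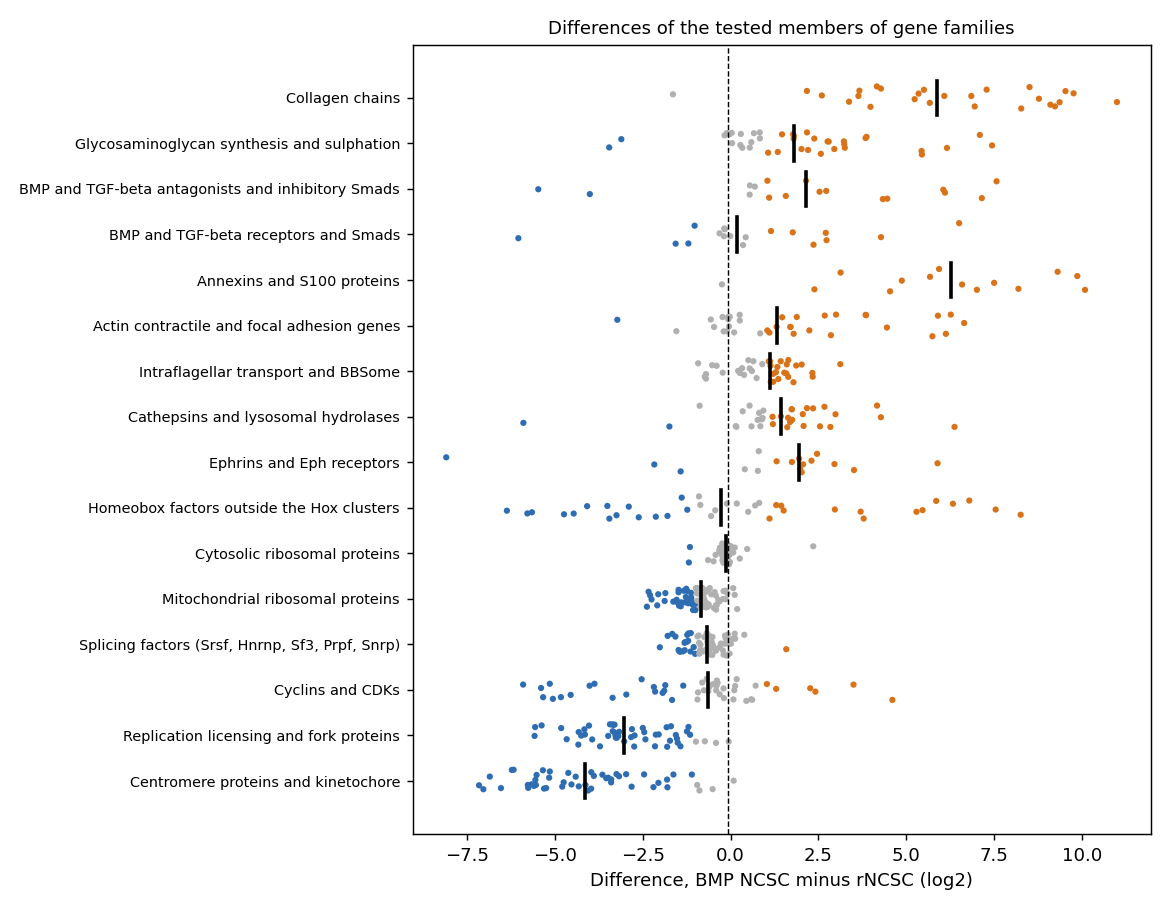
Log2 difference (BMP NCSC minus rNCSC) of each tested member of 16 gene families, 1 point per gene, with a black bar at the family's median and orange, blue and grey points for genes called higher, lower or not called. The dashed line is the median of all 10319 genes, -0.07. Collagens reach 11.00 and kinetochore genes -7.16, while nearly all cytosolic ribosomal proteins lie within 1 of 0.

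Genes of immune defence were higher in part, although macrophage markers were at the floor. Only 19 of 87 interferon-induced and MHC class I genes passed the filter, of which 12 were higher and 1 lower. Among the 14 that reached 5 in both groups, 8 were higher and 1 lower. Ifi35 was at 2.66, 3.32 and 3.51 against 10.26, 10.23 and 10.48, and Stat6, a cytokine signal factor, at 2.59, 2.57 and 2.36 against 8.20, 8.53 and 8.22. Casp4, an inflammatory caspase from the list of apoptosis regulators, was at 2.32, 2.35 and 2.37 against 8.49, 8.43 and 10.03. Of 12 chemokine and interleukin genes 8 were higher and 1 lower, but 6 of the 12 reached 5 only in BMP NCSC, which fixed their direction. Among the 5 that reached it in both groups, 2 were higher and none lower. Cxcl5 was at 2.22, 2.35 and 2.23 against 6.23, 6.25 and 11.60, and Cxcl1, another chemokine that draws neutrophils, at 2.81, 2.96 and 2.86 against 7.89, 7.68 and 11.20. Replicate 3 of BMP NCSC was thus far above the other 2 for both. Without it the difference of Cxcl5 was 3.97 in place of 5.76, and that of Cxcl1 4.91 in place of 6.05.

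Variation within the groups was concentrated in few genes. The median SD over the 3 arrays was 0.166 in rNCSC and 0.155 in BMP NCSC, and 267 and 150 genes had an SD above 1. In BMP NCSC replicate 3 carried most of it, with 38 genes at least 2 above and 17 at least 2 below both other arrays. Among the 10 genes with the highest SD there, Ccn3, a matricellular protein, was at 5.91, 6.67 and 10.07, and Lpl, lipoprotein lipase, at 4.90, 6.82 and 10.71. Lpl was not called, but was lower by 2.40 without replicate 3. Dkk1, a Wnt inhibitor, was at 10.07, 11.28 and 6.15 and Scin, an actin-severing protein, at 9.17, 7.70 and 5.10. Replicate 3 was thus the highest array for the first pair and the lowest for the second. The neuropeptide gene Npy peaked instead in replicate 2, at 7.78, 10.67 and 6.11.

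In rNCSC, replicate 3 shared several raised genes with BMP NCSC. A gene under 5 on the other rNCSC arrays and on all SCSC arrays could pass the filter only with BMP NCSC arrays. This was so for Mme, Tgfbi and Hoxd10, whose sharing was thus fixed by the filter. Eya1 also reached 5 on SCSC arrays (6.06 and 6.44). Mme, the membrane peptidase neprilysin, was at 1.82 and 2.12 in replicates 1 and 2, at 9.63 in replicate 3, and at 13.38, 13.07 and 12.70 in BMP NCSC. Eya1, a placode and crest cofactor, was at 3.04, 4.43 and 9.03 against 10.14, 9.85 and 9.14, and Tgfbi, a matrix protein, at 3.94, 3.05 and 9.01 against 8.90, 9.20 and 9.25. In all 3 genes replicate 3 was nearer to BMP NCSC than to its own group. With and without this array the differences were 8.53 and 11.08 for Mme, 4.21 and 5.97 for Eya1, and 3.78 and 5.62 for Tgfbi. The posterior Hox genes Hoxd10 and Hoxc10 were highest of all 6 arrays there. Hoxd10 was at 2.22, 2.38 and 8.55 against 5.21, 6.55 and 4.88, and Hoxc10 at 5.32, 2.99 and 9.47 against 7.81, 8.56 and 7.65, and neither was called. Without replicate 3 both were higher in BMP NCSC, by 3.25 and 3.85. Vit, a matrix protein, was instead missing in replicate 3, at 8.40, 7.54 and 2.75 against 2.45, 2.44 and 2.47. Its fall of 3.77 was not called without replicate 1 (-2.69) or 2 (-3.12) of rNCSC. With 1 array left out, Tgfbi kept its call only when that array was replicate 3 of rNCSC, and its difference without replicate 1 or 2 of rNCSC was 3.08 or 2.64 and without replicate 1, 2 or 3 of BMP NCSC 3.89, 3.74 or 3.72. Eya1 lost its call without replicate 1 (2.97) or 2 (3.67) of rNCSC and without replicate 1 (3.99) or 2 (4.14) of BMP NCSC. The crest marker Sox10 and the glial marker Erbb3 were near the floor in replicate 3 as in the others. The crest marker Twist1, however, was at 2.64, 2.75 and 5.48 in rNCSC. Summed over the crest markers, the linear level was 1199, 1394 and 1860 on replicates 1, 2 and 3. S100b, a glial calcium-binding protein, was at 5.02, 4.69 and 7.95.

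**Figure D5:**
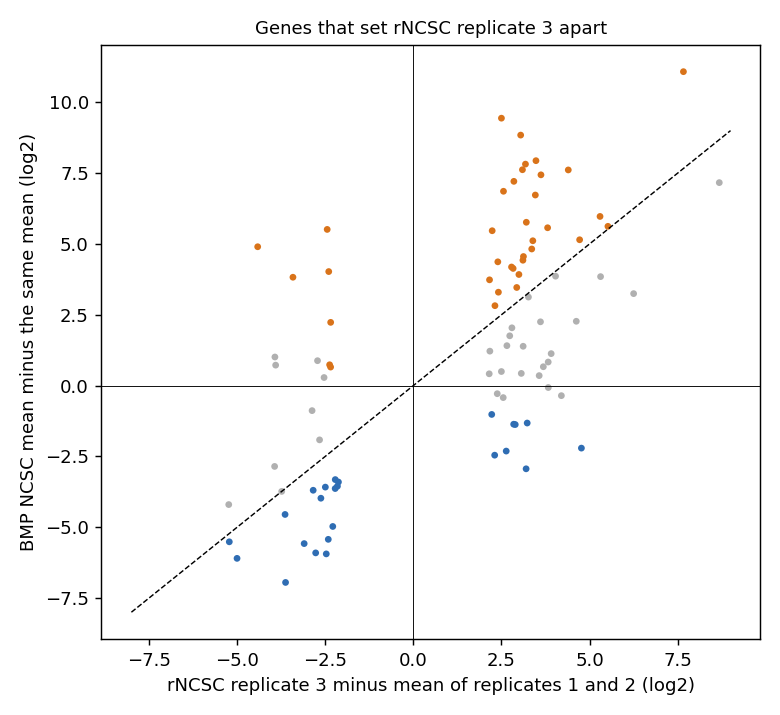
Genes at least 2 (log2) above or below both other rNCSC arrays in replicate 3 of rNCSC, 1 point per gene, 60 above and 32 below. The x axis is replicate 3 minus the mean of replicates 1 and 2, the y axis the BMP NCSC mean minus the same mean, and the dashed line marks equality. Of the 60 genes above both others in replicate 3, 48 also had a higher mean in BMP NCSC, and of the 32 below, 21 had a lower one. The filter favoured shared rises, since a gene low on all other arrays without BMP4 could pass only through BMP NCSC arrays. Orange, blue and grey mark genes called higher, lower or not called in BMP NCSC.

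Some genes had probe sets called in opposite directions, so that their entry depends on which probe set was read. Why the probe sets differed was not tested. There were 24 such genes. For Dleu2, a long noncoding RNA that hosts microRNAs, 1 probe set fell from 6.62 to 4.55 and 2 others rose by 3.96 and 3.92. For Tln1, which links integrins to actin, 1 probe set rose from 7.36 to 9.06 and 1 fell from 6.67 to 4.83.

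Some large differences lay in runs of neighbouring genes. With neighbours taken as adjacent genes of the array, there were 19 runs of at least 3 genes that differed by at least 2 in the same direction. These runs were found after the values were seen. On chromosome 5, Evc2, Stk32b, Cytl1 and Msx1 were all higher, and on chromosome 13 the leucine-rich proteoglycan genes Aspn, Omd and Ogn. On chromosome 12, the imprinted noncoding RNA Meg3 was at 3.79, 3.97 and 3.72 against 11.42, 10.35 and 11.90, its neighbour Rian at 2.82, 3.26 and 2.79 against 9.60, 8.15 and 9.92, and the protein-coding Dlk1 of the same cluster at 3.42, 3.27 and 3.42 against 7.60, 5.92 and 7.96. All 3 were at the floor in rNCSC. On chromosome 7, Ifitm1, Ifitm2 and Ifitm3, which restrict viral entry, were all higher.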

How the data were processed

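The authors deposited log2 expression values per probe set of Affymetrix mouse arrays, and the submitters' processing notes name GCRMA, with no version, as the method. Of 45101 probe sets, 64 controls were dropped and 34945 listed 1 gene symbol. Symbols were updated by gene ID to RefSeq (GRCm38.p6), and a gene with several probe sets was read from the one that averaged highest on the 9 arrays. Genes reaching 5 on at least 3 arrays were fitted with limma 3.58.1 in R 4.3.3 as group means over all 9 arrays, with eBayes and Benjamini-Hochberg adjustment, and the fit was tested on simulated data. Named genes were, among called genes, the 25 with the greatest difference each way and up to 4 each way per family, besides abundant members and top genes that differed by less than 0.5, the 10 most variable genes per group, genes with opposed probe sets and cell type markers. The families, markers and rules were chosen with earlier results of these data known. Promoter sequences are RefSeq's, for 22862 genes with 1 listed start. Same-numbered arrays were not taken as pairs.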

Additional observations from a re-analysis of the deposited data

How the results depend on the processing

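The counts of 2335 genes higher and 2197 lower stayed within 1.5 times under other normalisations, filters, probe set rules, variance models and a stricter adjusted p, and with 1 array left out they ranged from 2284 to 2410 and from 2155 to 2251. Without the size limit they were 3793 and 4249, and with a limit of 2 they were 1322 and 990. With the replicate block the counts were 2334 and 2199. Deviations of same-numbered arrays correlated at 0.060, 0.177 and 0.052, and those of differently numbered arrays at -0.091 to 0.022. The same-numbered values were low but above the others. The labels do not say what the numbers stand for, and they were not taken as pairs. Scaling to ribosomal protein genes gave 2621 and 1889. Averaging all probe sets moved 43 of 172 named called genes by over 1.5 times (68 of the 172 had a single probe set) and turned 2 of them, Dleu2 to 1.94 and Tln1 to -0.19. The others kept their direction, and Neo1 (1.45 to 0.88) fell below the size limit. Further such genes were Runx1 (6.64 to 3.03), Synpo (6.65 to 3.25) and Rfx4 (-8.88 to -4.65). Kdm5d, which was not called, ranged from -2.16 to 1.21 with 1 array left out. Of the genes called, 97.0% kept their call without replicate 3 of rNCSC and 96.6% without replicate 3 of BMP NCSC.

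Differences against a mean under 4 have no firm size, and 3 arrays a group limit what small differences can be seen. Whether the sex-linked genes, the 3' to 5' ratio or replicate 3 of rNCSC play a part in other results was not tested beyond leaving that array out.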
